A study of Mus musculus with 15 samples.

Results

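The complement genes described here are 9 genes of mouse lung, namely the classical pathway genes C1qa, C1qb, C1qc, C4b and C2, the central component C3, the alternative pathway gene Cfb and the anaphylatoxin receptor genes C3ar1 and C5ar1. They were chosen by name, with earlier results of these data known. Counts of members called therefore describe these genes and are no test of the pathway. Every array probe whose RefSeq accession maps to 1 of them was taken. This gave 10 probes, because C3 has 2, out of 27656 probes for 20972 genes that carried a gene symbol. All 9 genes passed the filter on dim probes and were tested among 25239 genes or unnamed transcripts. All 10 probes were well above background in each of the 15 samples, so no change below is a bound. The probe of C4b cannot be said to measure C4b alone, because its near-identical paralog C4a had no probe by that name here.

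The animals were female C57BL/6 mice of 7 to 8 weeks, and the labels name no genetic change in any group. The exposed groups received rCNT, a rod-like carbon nanotube, which is a fibre-shaped particle. For aspiration, a drop of liquid is placed at the back of the throat and drawn into the lung. The aspirated dose of rCNT was 10 µg in 50 µl of PBS, a buffered salt solution, on each of 4 days (4 samples), and its controls aspirated 50 µl of PBS without particles (4 samples). Inhaled rCNT was breathed as an aerosol of 6.2 to 8.2 mg per cubic metre for 4 h per day on 4 days (3 samples), and its controls were untreated mice (4 samples). Exposed and PBS lungs were collected 24 h later. Whether each sample holds RNA of 1 animal or of several is not stated, and the scans of the inhalation experiment carry the word pool in their names, so p-values here describe only how much these samples vary, and that variation may be technical. Untreated replicate 1 is titled as a PBS aspiration, against its other labels, and results that rest on it are also given without it.

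Complement is a cascade of blood and tissue proteins that marks particles and cells for removal. C1q binds a target and starts the classical pathway, in which C4 and C2 form an enzyme that cleaves C3. Factor B forms the corresponding enzyme of the alternative pathway. Cleaved C3 coats the target, while small fragments of C3 and C5, the anaphylatoxins, act on receptors of leukocytes. Liver makes most circulating complement. Macrophages are a main source of C1q, and lung epithelium and macrophages also make C3 and factor B.

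The members include neighbours in the genome. In the RefSeq annotation of GRCm38.p6 C1qb, C1qc and C1qa follow each other on chromosome 4, and Cfb and C2 lie next to each other on chromosome 17. C4b and C3 are also on chromosome 17, C3ar1 is on chromosome 6 and C5ar1 on chromosome 7. The promoters of 5 members were listed by RefSeq, those of C1qb, C1qc, C3, C3ar1 and C5ar1. The 3 printed here are those in which a motif match was found, 2 of them of genes for subunits of 1 protein. The other 2, of C3ar1 and C5ar1, held none and are not printed, though C3ar1 also rose after aspiration beside C1qb, C1qc and C3. Each runs 5′ to 3′ on the minus strand of GRCm38.p6, from 250 bases before to 50 bases after the gene's start, and capitals mark the motif matches. They lie at chr4:136886151-136886450 for C1qb, chr4:136892865-136893164 for C1qc and chr17:57228087-57228386 for C3.
C1qb: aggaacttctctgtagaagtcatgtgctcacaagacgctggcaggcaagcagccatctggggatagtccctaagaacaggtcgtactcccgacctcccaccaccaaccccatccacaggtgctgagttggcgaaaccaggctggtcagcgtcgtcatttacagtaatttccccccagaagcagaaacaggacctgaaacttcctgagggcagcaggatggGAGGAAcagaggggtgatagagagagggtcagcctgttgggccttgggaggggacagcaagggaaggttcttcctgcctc
C1qc: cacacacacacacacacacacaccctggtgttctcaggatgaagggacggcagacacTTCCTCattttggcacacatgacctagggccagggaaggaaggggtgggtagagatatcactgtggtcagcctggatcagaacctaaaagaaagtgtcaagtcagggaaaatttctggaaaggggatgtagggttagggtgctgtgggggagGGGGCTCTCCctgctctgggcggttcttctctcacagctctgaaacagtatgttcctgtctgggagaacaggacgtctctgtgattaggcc
C3: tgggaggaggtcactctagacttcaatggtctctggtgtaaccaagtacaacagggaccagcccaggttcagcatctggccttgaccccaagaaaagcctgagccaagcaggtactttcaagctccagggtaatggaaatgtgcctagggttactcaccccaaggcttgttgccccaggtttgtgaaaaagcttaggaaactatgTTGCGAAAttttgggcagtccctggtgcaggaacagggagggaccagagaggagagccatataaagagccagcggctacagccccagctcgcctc
Both strands were searched for 5 motifs, namely the GAS element TTCNNNGAA, the ISRE core (GAAA, any 2 bases, GAAA), the kappaB site, the C/EBP motif TTGCNNAA and the PU box GAGGAA. The C1qb promoter held a PU box, GAGGAA, at -30 from the gene's start. The C1qc promoter held a kappaB match, GGGGCTCTCC, at -41 and a PU box on the opposite strand, TTCCTC, at -193. The C3 promoter held a C/EBP motif, TTGCGAAA, at -45. No match was found in the windows of C3ar1 and C5ar1. Among 32544 mouse promoters of the same length, 28.12% held a PU box, 10.82% a C/EBP motif, 8.327% a GAS element, 4.529% a kappaB site and 3.448% an ISRE core. A match describes these letters and is not evidence of binding.

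In all 14 arrays on 3 slides were used, with inhaled rCNT replicate 2 and untreated replicate 4 on the same array. All 8 aspiration samples lay on slide 1. Slide 2 held inhaled rCNT replicate 1 and untreated replicates 1 to 3, and slide 3 held inhaled rCNT replicates 2 and 3 and untreated replicate 4. Fits said below to be within slide 2 or slide 3 also held the 8 samples of slide 1, which shared in the dye term and the spread. Such a fit had only 1 inhaled sample for slide 2 and only 1 untreated sample for slide 3. Its p-values therefore rest on the spread of the other groups. Across genes, samples of the same group correlated at 0.994 to 0.998, and the median gene had an SD of 0.0968 to 0.115 on the log2 scale. On the first principal component, with 43.3% of the variance, the range of untreated samples was 47.8 to 51.8 and that of PBS samples -0.17 to 1.05, so these control groups stood apart. Comparisons across routes are also comparisons across slides and kinds of control, and these cannot be told apart. All levels below are log2 intensities after background correction and quantile normalization, and levels of different probes are not set against each other.

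The first comparison asked how the lung responded to aspirated rCNT relative to PBS. All 9 complement genes were higher after aspirated rCNT at an adjusted p below 0.05, against 20.6% of all genes tested. For none of the 9 did an exposed sample overlap a PBS sample, which held for 42.5% of all genes. The median change over the 9 genes was 1.93 on the log2 scale, against -0.04 over all genes. The genes fell into 2 sizes of change. C1qa, C1qb, C1qc, C3, Cfb and C3ar1 rose between 3.31-fold and 4.59-fold, while C4b, C2 and C5ar1 rose between 1.17-fold and 1.52-fold.

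The 3 C1q genes encode the chains of 1 recognition molecule. C1qa stood at 12.00, 12.45, 12.20 and 12.42 in aspirated rCNT samples, and at 10.09, 10.19, 10.21 and 10.15 in PBS samples. The exposed samples all lay more than a log2 unit above the PBS samples, and the PBS samples lay close together. C1qa rose by 2.11 ± 0.12 (log2 fold change ± SE, n = 4 per group), or 4.31-fold (limma adjusted p = 7.22e-10). C1qb stood at 11.61, 11.88, 11.67 and 11.86 in aspirated rCNT samples, and at 9.55, 9.62, 9.56 and 9.50 in PBS samples. It rose by 2.20 ± 0.08, or 4.59-fold, the largest change of the 9 (limma adjusted p = 7.73e-12). In both genes the exposed samples labelled with Cy3, replicates 2 and 4, were higher than those labelled with Cy5. The dye term of the fit, Cy5 minus Cy3, was -0.21 for C1qa (limma adjusted p = 0.146) and -0.16 for C1qb (limma adjusted p = 0.107), and the comparison is fitted with dye as a term. C1qc stood at 12.28, 12.44, 12.51 and 12.45 in aspirated rCNT samples, and at 10.44, 10.61, 10.43 and 10.46 in PBS samples. It rose by 1.93 ± 0.08, or 3.81-fold (limma adjusted p = 6.04e-11).

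Downstream of C1q, C4b and C2 supply the parts of the classical C3-cleaving enzyme. C4b stood at 14.52, 14.73, 14.71 and 14.83 in aspirated rCNT samples, and at 14.10, 14.08, 14.13 and 14.06 in PBS samples. It rose by 0.61 ± 0.08, or 1.52-fold (limma adjusted p = 7.7e-06). C2 stood at 12.18, 12.27, 12.29 and 12.43 in aspirated rCNT samples, and at 11.95, 12.16, 11.83 and 11.95 in PBS samples. The lowest exposed sample of C2 lay just above PBS replicate 2, the highest of its controls. C2 rose by 0.32 ± 0.08, or 1.25-fold (limma adjusted p = 0.00381). Cfb, its neighbour on chromosome 17, had a much larger change, given below.

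C3 is the component on which all pathways converge, and Cfb encodes factor B. C3 stood at 17.02, 17.52, 16.85 and 18.12 in aspirated rCNT samples, and at 15.06, 15.68, 15.14 and 15.60 in PBS samples. Both groups were widely spread, with exposed replicate 4 well above the other 3, and they did not overlap. The spread went with the dye, in opposite directions. Exposed samples labelled with Cy3, replicates 2 and 4, were higher than those labelled with Cy5, while PBS samples labelled with Cy3, replicates 1 and 3, were lower. The dye term, common to all groups, was -0.14 (limma adjusted p = 0.624) and cannot describe this. The rise of C3 was thus larger in Cy3 than in Cy5, also with its other probe. C3 rose by 2.01 ± 0.21, or 4.01-fold (limma adjusted p = 9.76e-07), and its other probe rose by 1.81 ± 0.16. Cfb stood at 12.68, 12.93, 12.92 and 13.09 in aspirated rCNT samples, and at 10.73, 10.92, 10.75 and 10.88 in PBS samples. It rose by 2.09 ± 0.08, or 4.25-fold (limma adjusted p = 2.32e-11), with a narrower spread than C3 in both groups. Cfb samples were ordered by dye as in C3, with exposed Cy3 samples above Cy5 and PBS Cy3 samples below Cy5. Its rise was therefore also larger in Cy3 than in Cy5.

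The anaphylatoxin receptors differed in size of change. C3ar1, the receptor for the fragment of C3, stood at 8.36, 8.52, 8.55 and 8.26 in aspirated rCNT samples, and at 6.90, 6.66, 6.64 and 6.58 in PBS samples. It rose by 1.73 ± 0.09, or 3.31-fold (limma adjusted p = 7.31e-10), and by 2.83 with the scanner software's processed signal. C5ar1, the receptor for the fragment of C5, stood at 7.89, 7.98, 8.38 and 7.95 in aspirated rCNT samples, and at 7.84, 7.83, 7.86 and 7.76 in PBS samples. Exposed replicate 3 stood apart upwards, and the other 3 exposed samples lay just above the PBS samples. C5ar1 rose by 0.23 ± 0.09, or 1.17-fold (limma adjusted p = 0.0481), and was 0.12 higher without exposed replicate 3 (limma adjusted p = 0.199). The call of C5ar1 was also lost when any of exposed replicates 2 and 4 or of the 4 PBS replicates was left out, with adjusted p between 0.0539 and 0.129.

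**Figure D1:**
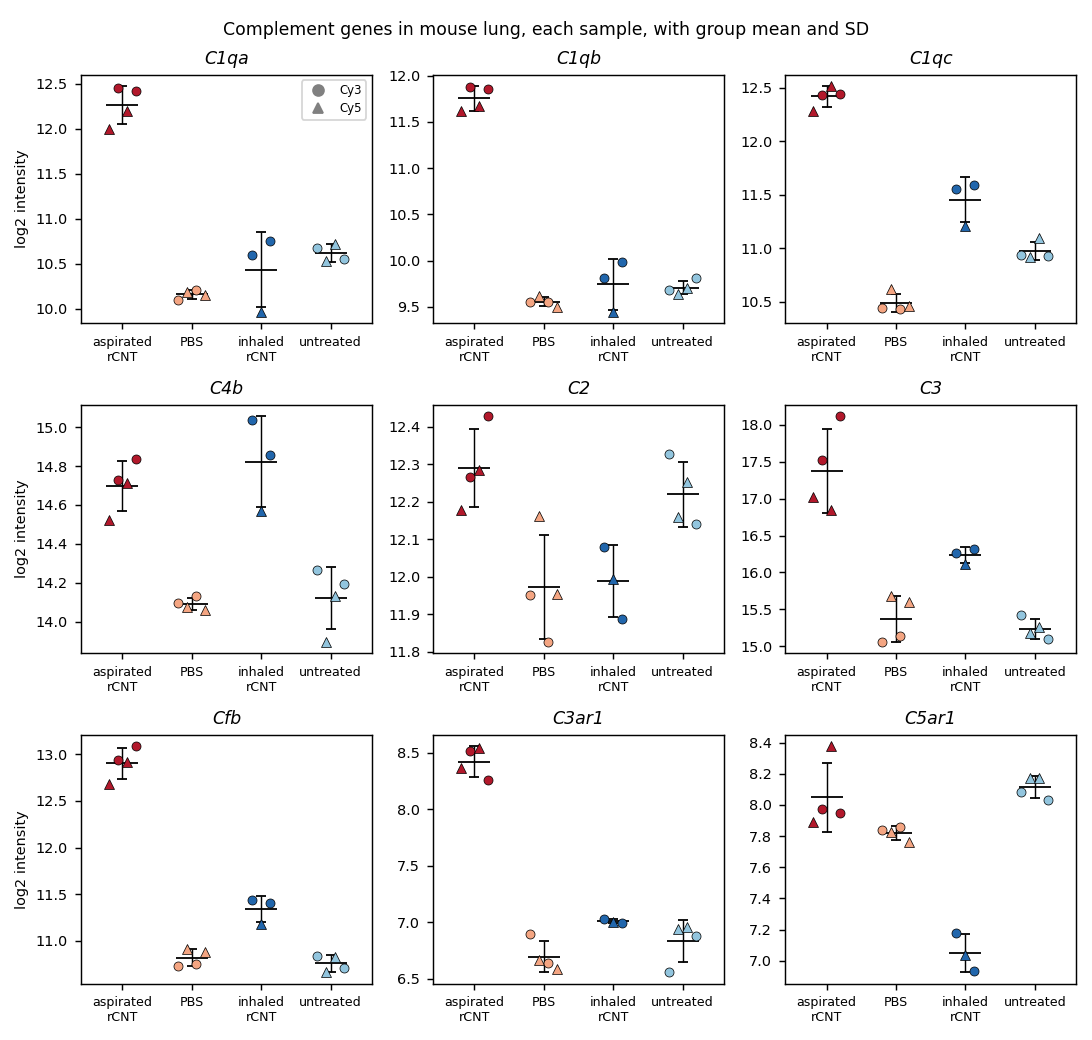
Log2 intensity (y axis) of each complement gene in every sample of the 4 groups (x axis), with circles for Cy3, triangles for Cy5, and bars for the group mean and SD (n = 4, or 3 for inhaled rCNT). For C1qa, C1qb, C1qc, C3, Cfb and C3ar1 all aspirated rCNT samples lie above every other sample, and for C5ar1 the 3 inhaled rCNT samples lie below every other sample.

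The second comparison asked how the lung responded to inhaled rCNT relative to untreated lungs. Of the 9 genes, C3, C4b, Cfb and C1qc were higher after inhalation, C5ar1 and C2 were lower, and C1qa, C1qb and C3ar1 did not pass the test. Among all genes tested 28.4% were called higher and 32.5% lower. The groups did not overlap for 7 of the 9 genes, against 54.8% of all genes. The median change over the 9 genes was 0.18, against -0.02 over all genes, and 4 and 2 of 9 genes called are near these shares. When the arrays were centred on their medians in place of quantile normalization, the median over all genes was -0.15 and only 27.5% of the called genes were higher, against 46.6% with quantile normalization. Under that scaling 1 member was called higher, C3, and 4 were called lower, C1qa, C1qb, C2 and C5ar1. C1qc, C4b and Cfb stayed above 0 and did not pass.

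C3 stood at 16.27, 16.11 and 16.32 in inhaled rCNT samples, and at 15.42, 15.18, 15.26 and 15.10 in untreated samples. The groups were well separated. C3 rose by 0.97 ± 0.23, or 1.96-fold (limma adjusted p = 0.0015), its other probe by 1.02, and by 0.56 with median centring (limma adjusted p = 0.00983). With the slide as a block the change of C3 was 1.03 (limma adjusted p = 0.0029). It was 0.86 within slide 2 (limma adjusted p = 0.0852) and 1.21 within slide 3 (limma adjusted p = 0.0368).

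Cfb stood at 11.44, 11.18 and 11.41 in inhaled rCNT samples, and at 10.84, 10.66, 10.83 and 10.70 in untreated samples. It rose by 0.58 ± 0.09, or 1.49-fold (limma adjusted p = 5.35e-05). Cfb was 0.62 higher with the slide as a block, past the threshold, and 0.63 higher within slide 2 and within slide 3. With median centring Cfb was 0.22 higher (limma adjusted p = 0.148).

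C4b stood at 15.04, 14.57 and 14.86 in inhaled rCNT samples, and at 14.27, 13.90, 14.13 and 14.20 in untreated samples. It rose by 0.67 ± 0.08, or 1.59-fold (limma adjusted p = 4.47e-06). With the slide as a block C4b was 0.72 higher, past the threshold, and it was 0.84 higher within slide 2 and 0.59 within slide 3. With median centring C4b was 0.16 higher (limma adjusted p = 0.262). C2 stood at 12.08, 11.99 and 11.89 in inhaled rCNT samples, and at 12.33, 12.16, 12.25 and 12.14 in untreated samples. C2 fell by 0.23 on the log2 scale, with an SE of 0.09 (limma adjusted p = 0.0295), and by 0.61 with median centring (limma adjusted p = 0.000817). The difference for C2 was -0.18 with the slide as a block (limma adjusted p = 0.0977), -0.17 within slide 2 (limma adjusted p = 0.321) and -0.22 within slide 3 (limma adjusted p = 0.227), and -0.11 with cyclic loess (limma adjusted p = 0.312). The call of C2 was also lost without inhaled rCNT replicate 2 or 3 or untreated replicate 1 or 3, with adjusted p between 0.054 and 0.123.

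The C1q genes parted after inhalation. C1qc stood at 11.56, 11.21 and 11.59 in inhaled rCNT samples, and at 10.94, 10.92, 11.10 and 10.93 in untreated samples. C1qc rose by 0.48 ± 0.09, or 1.39-fold (limma adjusted p = 0.000333). With the slide as a block C1qc was 0.52 higher, past the threshold, and it was 0.60 higher within slide 2 and 0.50 within slide 3. With median centring it was 0.11 higher (limma adjusted p = 0.399). C1qa stood at 10.59, 9.96 and 10.75 in inhaled rCNT samples, and at 10.67, 10.53, 10.72 and 10.55 in untreated samples. Inhaled rCNT replicate 2, the only inhaled sample labelled with Cy5, lay far below the other 2, and it was also the lowest inhaled sample of C1qb, C1qc, C4b, C3 and Cfb. C1qa differed by -0.22 ± 0.13 (95% interval -0.48 to 0.05, limma adjusted p = 0.141), by 0.00 without that sample (limma adjusted p = 0.998) and by -0.34 without inhaled replicate 3 (limma adjusted p = 0.0352). Blocking on the slide gave -0.14 for C1qa, and the difference was -0.14 within slide 2 and -0.05 within slide 3. C1qb stood at 9.81, 9.44 and 9.98 in inhaled rCNT samples, and at 9.68, 9.64, 9.70 and 9.81 in untreated samples. C1qb differed by 0.01 ± 0.09 (95% interval -0.17 to 0.19, limma adjusted p = 0.922), and by -0.24 with median centring (limma adjusted p = 0.0319), so its direction turns with the scaling.

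After inhalation the receptors were ordered the other way, with the larger change in C5ar1. C5ar1 stood at 7.18, 7.04 and 6.93 in inhaled rCNT samples, and at 8.08, 8.17, 8.17 and 8.03 in untreated samples. C5ar1 fell by 1.06 on the log2 scale, with an SE of 0.10, which makes it 2.08-fold lower after inhalation (limma adjusted p = 1.96e-07). Blocking on the slide gave -0.997 for C5ar1, past the threshold. The change was -0.92 within slide 2, -1.08 within slide 3, -0.97 with median centring and -1.65 with the processed signal. C3ar1 stood at 7.03, 7.01 and 7.00 in inhaled rCNT samples, and at 6.56, 6.94, 6.96 and 6.88 in untreated samples. The inhaled samples of C3ar1 lay just above all untreated samples, and untreated replicate 1 was the lowest. C3ar1 differed by 0.18 ± 0.10 (95% interval -0.04 to 0.40, limma adjusted p = 0.135), and by 0.08 without untreated replicate 1 (limma adjusted p = 0.478). With the processed signal C3ar1 differed by 0.49 (limma adjusted p = 0.059), and the median over the 9 members was 0.49 with that signal, against 0.18. Leaving out that sample, whose title conflicts with its other labels, removed the call of C2 and changed no other member's call after inhalation.

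**Figure D2:**
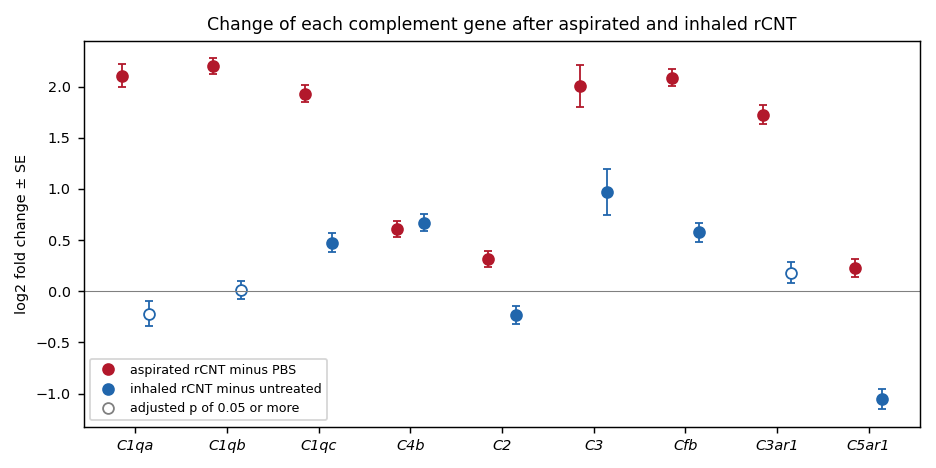
Log2 fold change ± SE (y axis) of each complement gene (x axis) for aspirated rCNT minus PBS and for inhaled rCNT minus untreated, with open circles where the adjusted p was 0.05 or more. C4b lies at 0.61 and 0.67, C5ar1 at 0.23 and -1.06, and the other genes lie higher for aspiration.

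The difference of the 2 rCNT effects, aspirated minus inhaled, was positive and past the threshold for 8 of the 9 genes, against 28.5% of all genes tested. It includes any difference between the slides and between PBS and untreated controls, which cannot be told apart from the route. The difference was 2.33 for C1qa (limma adjusted p = 2.77e-08), 2.19 for C1qb (limma adjusted p = 1.47e-09) and 1.46 for C1qc (limma adjusted p = 1.35e-07). Cfb and C3ar1 differed by 1.51 and 1.54, C5ar1 by 1.28, C3 by 1.03 and C2 by 0.55, with limma's adjusted p between 8.66e-08 and 0.00908. C4b was the exception, with a difference of -0.06 (limma adjusted p = 0.672) and a 95% interval of -0.30 to 0.18. With median centring the difference for C4b was 0.56 (limma adjusted p = 0.00661), and with cyclic loess that for C3 was 0.47 (limma adjusted p = 0.0681). Under median centring 69.4% of the genes called for this difference were positive, against 49.9% with quantile normalization, and the median over all genes was 0.14.

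Levels over all 4 groups gave each gene an order. C1qa, C1qb, C1qc, C3, Cfb and C3ar1 were highest in aspirated rCNT samples, and none of those samples overlapped the next group. For C1qc, C3, Cfb and C3ar1 the inhaled rCNT group came next and did not overlap the group below it, though C3ar1 was separated from untreated samples by only 7.00 against 6.96. For C1qa and C1qb the inhaled rCNT samples overlapped both the PBS and the untreated samples, while PBS samples lay below untreated samples without overlap. For C4b the inhaled and aspirated rCNT groups overlapped each other and lay above both controls, which also overlapped. C2 put aspirated rCNT and untreated samples, which overlapped, above inhaled rCNT and PBS samples, which overlapped as well, though PBS replicate 2 reached the untreated range. C5ar1 was lowest in inhaled rCNT samples, apart from all others, and aspirated rCNT overlapped untreated samples.

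In PBS samples relative to untreated samples 4 of the 9 members, C1qa, C1qc, C2 and C5ar1, were lower, with log2 differences of -0.46, -0.48, -0.25 and -0.29 and limma's adjusted p between 0.000154 and 0.0139, and the other 5 did not pass. Among all genes 33.1% were called lower in this comparison, and the members' 4 of 9 is near that share. Without PBS replicate 3 the call of C2 was lost, at -0.19, and calls were added for C1qb without PBS replicate 2, at -0.20, and for C3ar1 without untreated replicate 1, at -0.23. With median centring only C1qc passed, and 59.2% of the genes called over the whole array were higher, against 44.3% with quantile normalization. Read against PBS samples, inhaled rCNT samples were higher in C1qc by 0.96, C3 by 0.84, C4b by 0.70, Cfb by 0.51 and C3ar1 by 0.32, and lower in C5ar1, which differed by -0.76, with limma's adjusted p between 5.84e-07 and 0.0142. Among all genes 27.5% were called higher and 27.7% lower in that comparison, and the members' 5 and 1 of 9 stand against those shares. With median centring Cfb differed from PBS by -0.030 (limma adjusted p = 0.849), C1qb and C2 were called lower, at -0.32 and -0.50, the sign of C1qa turned, at -0.29 (limma adjusted p = 0.0565), and C4b lost its call, at 0.21 (limma adjusted p = 0.131), which left 3 members higher and 3 lower. Median centring moved the median over all genes to -0.29 here and the share of calls that were higher to 21.1%, against 49.9% with quantile normalization. Without inhaled rCNT replicate 2, C1qa and C1qb were higher than in PBS samples by 0.46 and 0.29 (limma adjusted p = 0.00276 and 0.0101).

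Likeness between genes was measured as the root mean square difference of log2 values over the 15 samples after centring each gene on its own mean, where a small value means a similar pattern. Among the members C1qa and C1qb were closest, at 0.178, followed by C1qb and Cfb at 0.218 and C1qc and C3ar1 at 0.268. C1qc differed from C1qa by 0.328 and from C1qb by 0.383, more than C1qb differed from Cfb. Among all other named genes, C3 was most like Cfi at 0.254, the gene of factor I, a protease that inactivates cleaved C3, and then like Chil3 and Cd177. C1qb was most like Oas1f at 0.174 and Fcgr2b, an inhibitory Fc receptor gene, at 0.209. C3ar1 was most like Gpr84, a receptor gene of myeloid cells, at 0.149. Cfb was most like Bcl2l15 at 0.139 and then like Cdkn3 and Cyp7b1. C1qa was most like Cpxm1 at 0.206 and then like Pimreg and Cdkn3. C1qc was most like Tyms-ps at 0.144 and then like Krtap11-1 and Nusap1, and C4b was most like Capsl at 0.0791. C2 was most like Mrps7 at 0.0700 and C5ar1 like Grpel1 at 0.143, both genes of mitochondrial proteins. The smaller values of C2 and C4b go with the small range of those genes over the samples.

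The other complement genes moved in both directions. Of 48 listed, 38 passed the filter on dim probes and were tested. After aspiration 15 of the 38 were higher, 9 lower and 14 did not pass, with a median change of 0.13, where 20.6% of all genes were called higher and 26.5% lower. After inhalation 12 were higher, 17 lower and 9 did not pass, with a median change of -0.12, and with median centring 5 were higher and 21 lower. Among all genes 28.4% were called higher and 32.5% lower after inhalation. With the slide as a block 11 were higher and 16 lower after inhalation, where 7058 and 8126 of 25239 genes were. Within slide 2 and within slide 3 fewer other complement genes were called, and fewer were called over all genes too. Changes named below are those over both slides, and the genes named as changed after inhalation also passed within each slide except where stated. Itgax within slide 2 and Cd59a and C5ar2 within slide 3 were not called either.

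In the classical and lectin pathway, 4 of 9 genes tested were higher and 1 lower after aspiration, and 3 were higher and 4 lower after inhalation. Fcna, a ficolin that recognises sugars, rose by 1.15 ± 0.11 after aspiration (limma adjusted p = 4.75e-07) and fell by 0.47 after inhalation (limma adjusted p = 0.00336). C1rb, a gene of the C1r protease that acts with C1q, rose by 0.71 ± 0.10 after aspiration and fell by 0.56 after inhalation, and C1ra rose by 0.76 ± 0.08 after aspiration and differed by -0.11 after inhalation (limma adjusted p = 0.277). After inhalation Fcna was not called within slide 2 or slide 3 (limma adjusted p = 0.0601 and 0.157), nor C1rb within slide 3 (limma adjusted p = 0.184). The 2 effects differed by 1.62 for Fcna and by 1.27 for C1rb (limma adjusted p = 7.48e-07 and 4.32e-06). Colec11, a collectin, fell after both exposures, by 0.21 and 0.80. In the alternative pathway Cfp, which encodes properdin, a stabiliser of the alternative enzyme, rose by 1.46 ± 0.10 after aspiration and by 0.60 ± 0.10 after inhalation, the second lost with median centring (0.24, limma adjusted p = 0.086). Cfd, the protease that cleaves factor B and a product of fat cells, fell by 1.03 after aspiration and by 1.19 after inhalation, the second not called within slide 3 (limma adjusted p = 0.0508).

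In the terminal pathway, which builds the membrane pore, 2 of 4 genes were higher in each comparison and none lower. C7 rose by 2.17 ± 0.12 after inhalation (limma adjusted p = 6.39e-10) and differed by 0.08 after aspiration (limma adjusted p = 0.593), and the effects differed by -2.09 (limma adjusted p = 3.8e-08). C7 rose by 2.43 within slide 2 and by 2.12 within slide 3. C6 rose by 0.42 after aspiration. Among 7 soluble regulators 3 were higher and 2 lower after aspiration, and 2 were higher and 3 lower after inhalation. Cfi rose by 2.21 ± 0.10 after aspiration and by 0.93 ± 0.11 after inhalation, and Clu, which encodes clusterin, rose by 1.15 ± 0.10 and 0.98 ± 0.11. Vtn, which encodes vitronectin, another inhibitor of the pore, fell by 1.09 and 0.84. C4bp, a cofactor of factor I, was dim in PBS samples, where no sample was well above background, and was at least 1.69-fold higher after aspirated rCNT (limma adjusted p = 2.98e-05).

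Of 6 membrane regulators, which protect host cells, none was higher and 3 were lower after aspiration, and 1 was higher and 4 were lower after inhalation. Cd59a, an inhibitor of the pore, fell by 0.45 and 0.29, and Cr1l, an inhibitor of the C3-cleaving enzymes, fell by 0.24 and 0.58, the fall of Cr1l after aspiration being lost with median centring (limma adjusted p = 0.16). Of 10 receptors and C1q-binding proteins 5 were higher and 2 lower after aspiration, and 3 were higher and 5 lower after inhalation. Itgax and Itgb2 encode the chains of complement receptor 4, and Itgam pairs with Itgb2 in complement receptor 3. Itgax rose by 1.48 ± 0.10 after aspiration and by 0.57 ± 0.11 after inhalation, the second lost with median centring (limma adjusted p = 0.173). Itgb2 rose by 0.83 after aspiration and fell by 0.94 after inhalation, while Itgam fell by 0.37 after aspiration, lost with median centring (limma adjusted p = 0.071), and rose by 0.82 after inhalation. C5ar2, the other receptor for the fragment of C5, differed by 0.14 after aspiration (limma adjusted p = 0.0807) and rose by 0.28 after inhalation, lost with median centring (limma adjusted p = 0.261). Cr2, a complement receptor of B cells, fell by 1.05 after inhalation.

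**Figure D3:**
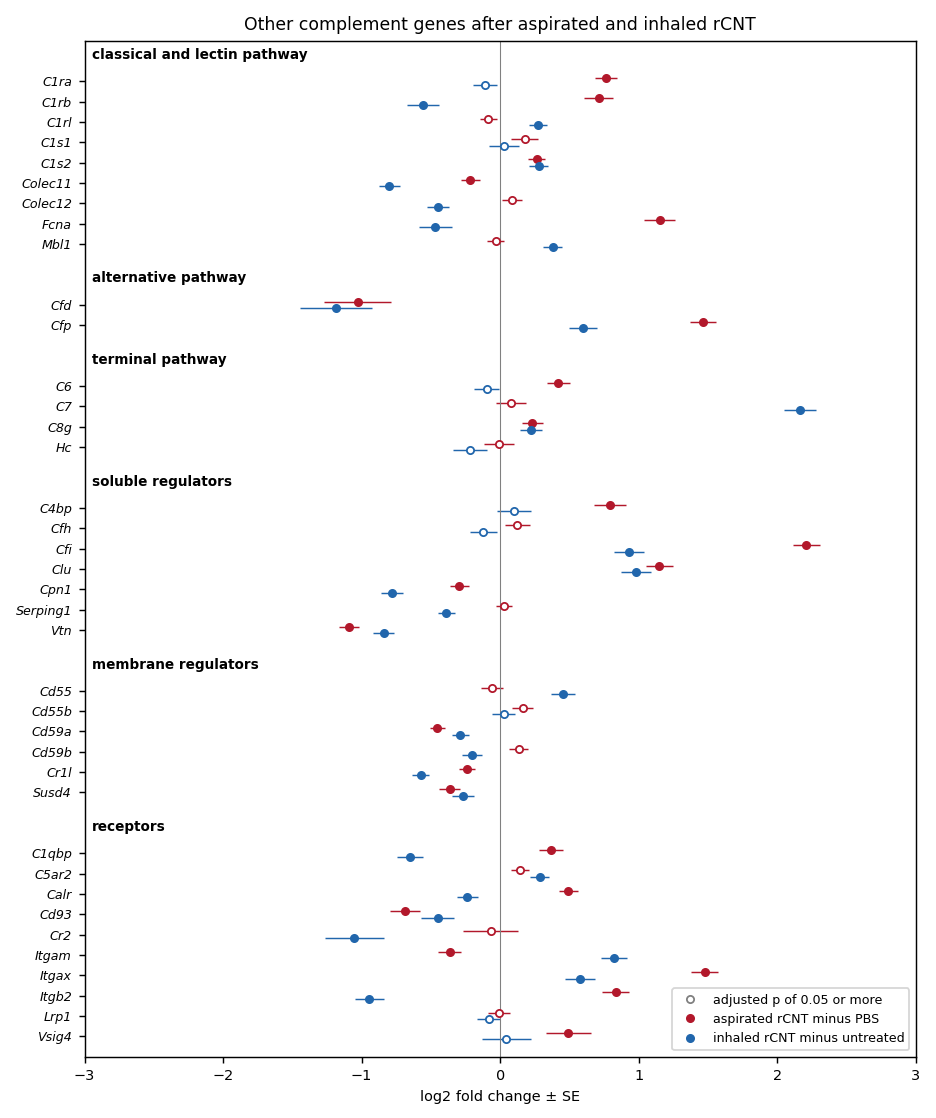
Log2 fold change ± SE (x axis) of the 38 other complement genes tested, grouped by role (y axis), for aspirated rCNT minus PBS and for inhaled rCNT minus untreated, with open circles where the adjusted p was 0.05 or more. Cfi lies furthest right for aspiration at 2.21 and C7 for inhalation at 2.17.

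Markers of leukocytes moved beside the complement genes. In whole lung more cells of a type and more RNA per cell cannot be told apart. Of 13 macrophage and monocyte markers tested, 9 were higher and 3 lower after aspiration, and 5 were higher and 6 lower after inhalation. Among all genes 20.6% were called higher and 26.5% lower after aspiration, and 28.4% and 32.5% after inhalation. The marker counts after inhalation are not far from those shares. The log2 of their summed intensity was 18.38 to 18.69 in aspirated rCNT samples, against 17.17 to 17.44 in PBS samples, and 17.39 to 17.53 in inhaled rCNT samples, against 16.88 to 17.11 in untreated samples. The mean of their log2 values, in which bright genes weigh no more than dim ones, was 11.58 to 11.76 in aspirated rCNT samples, against 10.99 to 11.08 in PBS samples, and 10.65 to 10.74 in inhaled rCNT samples, against 10.74 to 10.90 in untreated samples. After inhalation the sum was thus higher and the mean lower, each without overlap, though the means of the groups came within rounding of each other. Chil3, a chitinase-like protein of macrophages, rose by 2.0 ± 0.09 after aspiration and by 1.19 ± 0.10 after inhalation. Chil3 weighed most in the sum, with means of 18.21 in aspirated rCNT, 16.21 in PBS, 17.05 in inhaled rCNT and 15.87 in untreated samples. Siglecf, a marker of alveolar macrophages and eosinophils, fell by 1.71 and Lyz2 by 1.45 after inhalation. Cd163 was not well above background in any inhaled rCNT or untreated sample, and no probe was matched by name to Cd68 or Ly6c2.

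Of 9 neutrophil markers 5 were higher and 1 lower after aspiration, and 2 were higher and 4 lower after inhalation, with the log2 of the summed intensity at 16.62 to 16.92 in aspirated rCNT samples, 16.62 to 16.87 in PBS samples, 16.58 to 16.72 in inhaled rCNT samples and 16.35 to 16.46 in untreated samples. The mean of their log2 values was 10.92 to 11.40 in aspirated rCNT samples, against 10.25 to 10.51 in PBS samples, and 9.74 to 10.03 in inhaled rCNT samples, against 10.03 to 10.51 in untreated samples. The sum overlapped after aspiration where the mean did not, and after inhalation the sum was higher and the mean lower. S100a8, a calcium-binding protein of neutrophils, fell by 2.63 ± 0.28 after inhalation, and Cxcr2, a chemokine receptor of neutrophils, by 0.76 ± 0.15. The 2 that rose after inhalation were Ltf, the gene of the granule protein lactoferrin, by 3.22 ± 0.13 and Csf3r, the receptor gene of a granulocyte growth factor, by 0.53 ± 0.06. The change of Csf3r was 0.06 with median centring (limma adjusted p = 0.637). Csf3r also weighed most in the summed intensity, with means of 15.95 in aspirated rCNT, 16.34 in PBS, 16.39 in inhaled rCNT and 15.89 in untreated samples. After inhalation the sum therefore follows Csf3r more than the other neutrophil markers. After aspiration Csf3r was the 1 marker called lower, at -0.39, while the sum overlapped between the groups. After aspiration S100a8 differed by 0.51 (limma adjusted p = 0.115) and Cxcr2 rose by 1.07 ± 0.13. All 6 B cell markers were lower after inhalation, and 1 was higher after aspiration. Of 7 endothelial markers 6 were lower after aspiration and all 7 after inhalation. All 6 cardiac muscle markers were lower after aspiration, and 2 of 6 after inhalation. Beside these counts and those of the neutrophil markers stand the shares of all genes. They were 20.6% called higher and 26.5% lower after aspiration, and 28.4% and 32.5% after inhalation. All 6 cardiac markers were also higher in PBS than in untreated samples, by a median of 1.39, where 6642 of 25239 genes were called higher. In inhaled rCNT relative to PBS samples all 6 were lower, against 27.7% of all genes. PBS samples thus stood above each other group, and whether samples differed in heart tissue was not tested. Actc1, a cardiac actin gene, lost its call after aspiration with cyclic loess (limma adjusted p = 0.0708) and with median centring (limma adjusted p = 0.355). Of 6 hepatocyte markers tested 2 were higher and 2 lower after aspiration, and 1 was higher after inhalation. The log2 of their summed intensity was 11.34 to 11.50 in aspirated rCNT samples, against 11.46 to 12.01 in PBS samples, and 12.00 to 12.30 in inhaled rCNT samples, against 11.69 to 12.11 in untreated samples. Alb, which encodes albumin, was well above background in none of the aspirated or inhaled rCNT samples, in 3 of 4 PBS samples and in 2 of 4 untreated samples. The part of the macrophage and neutrophil markers in the complement results was not tested.

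**Figure D4:**
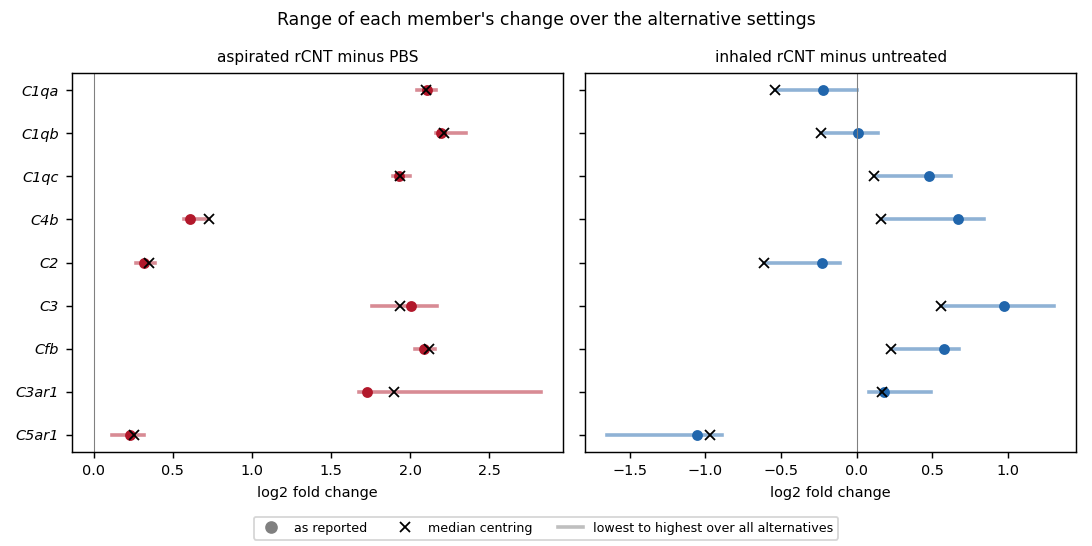
Log2 fold change (x axis) of each complement gene (y axis) for aspirated rCNT minus PBS (left) and inhaled rCNT minus untreated (right), with dots for the values reported, crosses for median centring and bars from the lowest to the highest value over all alternatives. The aspiration bars all lie above 0, while after inhalation the bar of C1qb reaches both sides of 0 and that of C1qa runs from -0.54 to 0.00.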

How the data were processed

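RNA of 15 mouse lung samples was measured on 2-colour Agilent arrays, and each sample is the Cy3 or Cy5 channel of an array. Per the file headers the scans were read with Agilent Feature Extraction 11.0.1.1 on a design for the build mm9, and limma is named too, per the submitters' processing notes. The deposited intensity values used are spot medians and local background medians, read in the channel of the sample. The authors' processed intensity and the deposited series table, whose values were taken as log2 although their scale, base and centring are not stated, served as alternatives.

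Background was removed by normexp with an offset of 50, values were logged to base 2 and the 15 channels quantile-normalized, and control spots and outlier flags (106 to 154 per sample) were left out. Between 54.6% and 64.7% of spots were well above background and 0 were saturated. The filter asked for 3 or more samples of some group well above background and passed 34248 of 55681 probes. Names came from RefSeq accessions matched to GRCm38.p6, and of several probes of a gene the brightest on average was used. The number of arrays limits the precision.

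A linear model of group and dye was fitted to the whole set by limma 3.58.1 (lmFit, then eBayes, two-sided tests, R 4.3.3), with 5 contrasts. P-values were adjusted by Benjamini-Hochberg over the 25239 genes tested, with a threshold of 0.05. The code was tested on simulated data. Plots were drawn with matplotlib 3.10.9 in Python 3.11.15. Replicate numbers were not used to pair the samples. The correlations of same-numbered deviations ran from -0.14 to 0.29. Differently numbered samples were not set beside them, so these values cannot decide whether the samples were paired. Alternatives were other signals, scalings, filters, model terms, slides and left-out samples.

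The members and gene lists were chosen with earlier results of these data known. The text names all 9 members, some other complement genes and 1 to 3 of the genes most like each member. B cell and endothelial markers are given as counts. Chil3, Siglecf, Lyz2, Cd163, S100a8, Cxcr2, Ltf, Csf3r, Actc1 and Alb among the markers were named for their role or after their values were seen.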

Additional observations from a re-analysis of the deposited data

Results flagged for a closer look

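C1qc had 1 sample far from the others in each control group. In PBS samples replicate 2 stood at 10.61, against 10.43 to 10.46 for the other 3, and its gap was 0.840 of the group's range. In untreated samples replicate 3 stood at 11.10, against 10.92 to 10.94 for the other 3, and its gap was 0.901 of the range. Both gaps pass Dixon's critical value at 95%, as 2 of 27 sets of 4 samples did, where chance passes about 1 in 20. C1qc was still called for aspirated rCNT minus PBS without PBS replicate 2, and for inhaled rCNT minus untreated without untreated replicate 3.

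The effects of aspirated and inhaled rCNT, each against its own control, differed for 8 members by the tested difference. The effect of aspiration was larger by 2.33 for C1qa, 2.19 for C1qb, 1.54 for C3ar1, 1.51 for Cfb, 1.46 for C1qc, 1.28 for C5ar1, 1.03 for C3 and 0.55 for C2. Slide and kind of control differ with the route and cannot be told apart from it.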

How the results depend on the processing

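The number of members called ranged over all alternatives from 8 to 9 after aspiration, 4 to 6 after inhalation, 7 to 9 for the difference of effects, 1 to 5 for PBS minus untreated and 6 to 8 for inhaled rCNT minus PBS. With a single sample left out the ranges were 8 to 9, 5 to 6, 8 to 8, 3 to 5 and 6 to 8. After aspiration 176 of 189 alternative member values kept direction and call, 13 lost the call and none turned, the lost ones all being C5ar1. After inhalation 177 of 198 kept both.

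Median centring turned the sign of C1qb after inhalation (-0.24), of the difference of effects for C4b (0.56), of C1qa (-0.29), C1qb (-0.32), C2 (-0.50) and Cfb (-0.030) for inhaled rCNT minus PBS, and of C1qb for PBS minus untreated (0.08). Of these, C1qa for inhaled rCNT minus PBS and C1qb for PBS minus untreated were called under neither scaling. It left 1 member called for PBS minus untreated, against 4. Within slide 3, which holds 3 samples, 18 other complement genes were called after inhalation, against 29. The call of C5ar1 after aspiration was lost with median centring (limma adjusted p = 0.0777), without the filter on dim probes (0.0639), without the dye term (0.0534), in the fit of only the compared groups (0.0686) and with trended robust variance (0.0509). With the replicate block C5ar1 changed by 0.23 (limma adjusted p = 0.0606) and C2 after inhalation by -0.23 (limma adjusted p = 0.0584), and the block changed no other member's call. The causes were not tested. Normexp on mean signals was not run, and the array as a random block could not be fitted, since 1 array holds 2 samples.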
